A study of Homo sapiens with 12 samples.

Results

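Mismatch repair was followed through 6 genes in A2780 cells: EXO1, MSH6, MSH3, MLH3, PMS1 and PMS2. They were found as all probes that the platform annotation assigns to one of these symbols and to no other gene. This gave 16 of 54613 probe sets on the Affymetrix array (AFFX), for 5 of the 6 genes, and 7 of 33096 probes on the Applied Biosystems array (ABI), for all 6. A2780 is an established human ovarian carcinoma line. Control cells were untreated, and treated cells were exposed for 6 h to a 3 µM dose of a cell cycle inhibitor that is not named, so nothing is said here of its targets. Each of the 4 groups, control and treated on either platform, held 3 arrays, 12 in all. For each condition RNA from 3 biological replicates was pooled and then split into aliquots, so the arrays are technical replicates of 1 pool and every p-value compares the 2 pools against technical spread. Attached cells alone were harvested, and in bulk RNA fewer cells of a kind and less RNA per cell cannot be told apart.

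Mismatch repair removes wrong bases and small loops left behind by DNA polymerase. MutS proteins find the mismatch, MutL proteins are recruited and nick the new strand, and an exonuclease then removes the stretch that holds the error before it is filled in again. MSH6 belongs to the MutS dimer for single mismatches and short loops, and MSH3 to the dimer for larger loops. PMS2 carries the endonuclease of the main MutL dimer, MLH3 has an endonuclease that is best known from meiotic crossovers, and the role of PMS1 is less clear. EXO1 is the exonuclease, and it also resects broken DNA ends. Loss of this system is known in ovarian and other tumors as microsatellite instability. The other subunits of these dimers were not analysed here.

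The sequences around the start sites of 4 members are shown because these genes moved differently, EXO1 with the largest change and MSH3 not past the thresholds. Each runs from 250 bases before the first listed RefSeq start to 20 bases after it, 5′ to 3′ on the strand of the gene, in build GRCh38.p14. Capitals mark a match to any of 4 octamers that are commonly used for E2F sites, TTTCCCGC, TTTCGCGC, TTTGCCGC and TTTGGCGC, sought on both strands. The EXO1 window lies at chr1:241847954-241848223 on the plus strand, the MSH6 window at chr2:47782895-47783164 on the plus strand, the MLH3 window at chr14:75051448-75051717 on the minus strand and the MSH3 window at chr5:80654402-80654671 on the plus strand.
EXO1: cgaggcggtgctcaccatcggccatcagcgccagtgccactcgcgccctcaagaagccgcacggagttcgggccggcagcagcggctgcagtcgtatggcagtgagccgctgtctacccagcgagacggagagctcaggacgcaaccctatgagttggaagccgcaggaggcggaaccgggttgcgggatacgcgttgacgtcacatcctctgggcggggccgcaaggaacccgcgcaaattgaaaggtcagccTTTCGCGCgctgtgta
MSH6: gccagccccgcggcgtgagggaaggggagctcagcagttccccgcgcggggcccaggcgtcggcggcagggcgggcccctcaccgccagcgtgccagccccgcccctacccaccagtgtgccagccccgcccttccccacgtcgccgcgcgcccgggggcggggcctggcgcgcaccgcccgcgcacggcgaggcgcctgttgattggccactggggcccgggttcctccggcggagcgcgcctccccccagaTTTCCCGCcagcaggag
MLH3: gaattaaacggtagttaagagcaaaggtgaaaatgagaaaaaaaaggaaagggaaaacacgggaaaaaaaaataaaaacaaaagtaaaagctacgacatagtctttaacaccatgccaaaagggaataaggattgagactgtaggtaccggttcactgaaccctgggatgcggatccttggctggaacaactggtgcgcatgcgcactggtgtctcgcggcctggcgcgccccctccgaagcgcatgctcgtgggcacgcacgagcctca
MSH3: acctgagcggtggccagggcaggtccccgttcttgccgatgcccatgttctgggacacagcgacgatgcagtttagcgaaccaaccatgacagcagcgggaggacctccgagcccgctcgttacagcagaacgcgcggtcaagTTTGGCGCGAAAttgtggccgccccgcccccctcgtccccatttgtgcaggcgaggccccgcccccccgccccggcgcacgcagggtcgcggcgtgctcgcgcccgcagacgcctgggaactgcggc

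In the EXO1 window TTTCGCGC stood at bases 5 to 12 after the start, and in the MSH6 window TTTCCCGC stood at bases 4 to 11. In the MSH3 window TTTGGCGC began 107 bases before the start and overlapped TTTCGCGC read from the other strand. The PMS2 window, not printed, held TTTGCCGC, and the MLH3 and PMS1 windows held no match to these letters. Of 27305 genes with a listed window, 826 (3.03%) held at least 1 of the octamers in the same 270 bases. A match describes the letters alone, and binding at these sites was not tested. GC content of the window ranged over the members from 48.9% in MLH3 to 79.6% in MSH6.

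Values are log2 signals as deposited for AFFX and log2 of the deposited normalized intensities for ABI. A probe was called where the adjusted p of limma was under 0.05 and the change was at least 1.5-fold. On AFFX 4 of the 16 member probe sets were called lower, 1 each for EXO1, MSH6, MLH3 and PMS1, where 8.95% of all probe sets were called lower. A further 2, both for PMS1, were called higher, where 1.75% of all were. On ABI 5 of 7 member probes were called lower, those of EXO1, MSH6, MLH3 and PMS1 and 1 of the 2 for PMS2, where 10.1% of all probes were. None of the 7 was called higher, where 7.71% of all probes were, and none of these 7 reached an unadjusted p under 0.05 in the higher direction in limma or was called higher under any alternative, the methods' t-test included. MSH3 was not called on either platform.

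**Figure D1:**
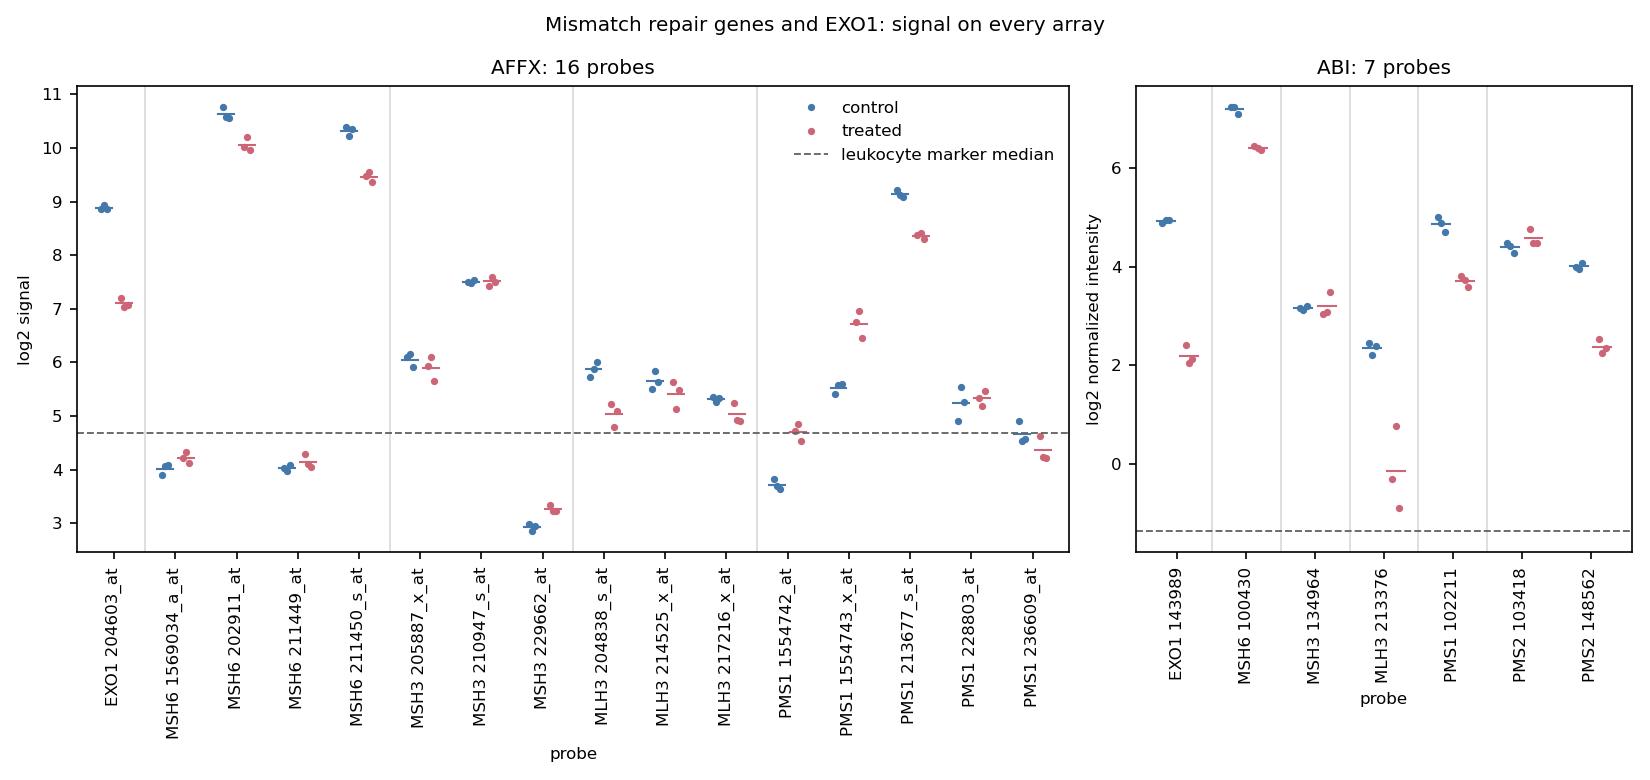
Signal of every member probe on every array, with AFFX log2 signals left and ABI log2 normalized intensities right; points are arrays, short bars group means (3 arrays each) and the dashed line the median of the leukocyte marker probes of that platform (4.68 and -1.35). Levels of different probes are not comparable; within a probe, EXO1 shows the 2 groups far apart on both platforms, and 5 AFFX probe sets have their mean over all arrays under the dashed line.

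EXO1, the exonuclease, fell on both platforms, with the largest change among the members on each, though on ABI the fall of MLH3 differed from it by less than its own SE. On AFFX its only probe set (204603_at) read 8.86, 8.93 and 8.85 on the control arrays and 7.20, 7.03 and 7.07 on the treated arrays. On ABI (probe 143989) the controls read 4.89, 4.95 and 4.94 and the treated arrays 2.42, 2.06 and 2.13. All treated arrays lay below all control arrays on either platform, and the gap was many times the spread within a group. The log2(Fold Change) was -1.78 ± 0.0842 (SE) on AFFX, a 3.44-fold fall with an adjusted p of 7.24e-08 in limma, so treated cells held 29.1% of the control signal. On ABI it was -2.73 ± 0.144, a 6.61-fold fall to 15.1% of control (adjusted p = 0.000597 in limma). Both calls held with each array left out in turn and under every alternative run, with a log2(Fold Change) between -2.20 and -1.74 on AFFX and between -3.27 and -2.47 on ABI.

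MSH6, which recognises single mismatches, fell less than 2-fold on both platforms. Probe set 211450_s_at read 10.39, 10.22 and 10.34 on the control arrays and 9.47, 9.55 and 9.36 on the treated arrays, with no overlap. Its log2(Fold Change) was -0.86 ± 0.0889 (SE), a 1.81-fold fall with an adjusted p of 2.64e-05 in limma. Probe set 202911_at read 10.76, 10.57 and 10.55 in controls and 10.02, 10.20 and 9.96 in treated cells. Those groups did not overlap either, and the change of -0.57 ± 0.0967 had an adjusted p of 0.00109 in limma, but at 1.48-fold it stayed just short of the fold limit. It passed that limit under 3 other scalings of the arrays, and also without AFFX control array 2, without control array 3 or without treated array 2 (-0.60, -0.60 and -0.64).

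The remaining MSH6 probe sets were dim. 1569034_a_at read 4.02 ± 0.105 (SD, n = 3) in controls and 4.22 ± 0.0975 in treated cells, and 211449_at read 4.03 ± 0.0548 and 4.15 ± 0.123. Both lie under the median of the leukocyte marker probe sets, 4.68, which these cells should not express, and neither was called (adjusted p = 0.102 and 0.322 in limma). 211449_at and 211450_s_at come from the same source record and gave different results. On ABI, probe 100430 read 7.22, 7.22 and 7.09 in controls and 6.43, 6.39 and 6.35 in treated cells. Here MSH6 fell by 0.79 ± 0.116 (SE) on the log2 scale, 1.73-fold, with an adjusted p of 0.00952 in limma.

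MSH3, the MutS protein for larger loops, was not called by any of its 4 probes. Probe set 210947_s_at read 7.51, 7.47 and 7.53 in controls and 7.43, 7.59 and 7.51 in treated cells. The groups overlapped, and the log2(Fold Change) was 0.01 ± 0.0820 (adjusted p = 0.943 in limma). Probe set 205887_x_at, of a type that can cross-hybridise, read 6.09, 6.15 and 5.92 against 5.94, 6.09 and 5.65, overlapping as well, with a change of -0.16 (adjusted p = 0.304 in limma). ABI probe 134964 read 3.16, 3.12 and 3.20 in controls and 3.04, 3.07 and 3.49 in treated cells, where treated array 3 stood apart. Its change was 0.04 ± 0.164, with an adjusted p of 0.904 in limma. Probe set 229662_at, under the leukocyte marker median, read 2.93 ± 0.0685 (SD, n = 3) and 3.27 ± 0.0690, a difference of 0.34 that had an adjusted p of 0.00912 in limma and was only 1.26-fold. The sign of the change turned under some alternatives for 210947_s_at, 229662_at and 134964, none of which were called there.

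MLH3, a MutL endonuclease, was lower on both platforms. Probe set 204838_s_at read 5.73, 5.88 and 6.00 on the control arrays and 5.23, 4.80 and 5.09 on the treated arrays. The groups did not overlap, and the log2(Fold Change) was -0.83 ± 0.118 (SE), a 1.78-fold fall with an adjusted p of 0.000309 in limma. The other MLH3 probe sets, both of the cross-hybridising type, gave smaller values. 214525_x_at read 5.66 ± 0.174 (SD, n = 3) in controls and 5.41 ± 0.264 in treated cells and was not called (adjusted p = 0.172 in limma). 217216_x_at read 5.32 ± 0.0476 and 5.03 ± 0.183, a 1.22-fold difference under the fold limit (adjusted p = 0.0438 in limma).

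On ABI the MLH3 probe (213376) read 2.45, 2.22 and 2.39 in controls and -0.30, 0.77 and -0.89 in treated cells. The treated arrays spread over more than 1.5 log2 units, and all lay below the controls. The log2(Fold Change) was -2.49 ± 0.427 (SE), a 5.63-fold fall with an adjusted p of 0.0151 in limma. The call was lost without ABI control array 1, control array 2, control array 3 or treated array 1, with adjusted p between 0.0522 and 0.0557, and held without treated array 2 or treated array 3. Adding the platform's median intensity before the log gave -1.59, still called.

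PMS1, a MutL protein, gave probes that moved in opposite directions. Probe set 213677_s_at read 9.22, 9.11 and 9.08 on the control arrays and 8.38, 8.42 and 8.29 on the treated arrays. All treated values were lower, and the log2(Fold Change) of -0.78 ± 0.0834 (SE) was a 1.71-fold fall with an adjusted p of 3.52e-05 in limma. Probe set 1554742_at read 3.82, 3.69 and 3.64 in controls and 4.73, 4.84 and 4.54 in treated cells, and 1554743_x_at read 5.41, 5.57 and 5.60 against 6.75, 6.96 and 6.46. Here all treated values were higher. The changes were 0.99 ± 0.0987 and 1.19 ± 0.122, or 1.98-fold and 2.29-fold, with adjusted p of 1.95e-05 and 2.43e-05 in limma. These 2 probe sets come from a single source record, so they are not independent measurements. The first starts below the leukocyte marker median, and the second is of the cross-hybridising type.

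**Figure D2:**
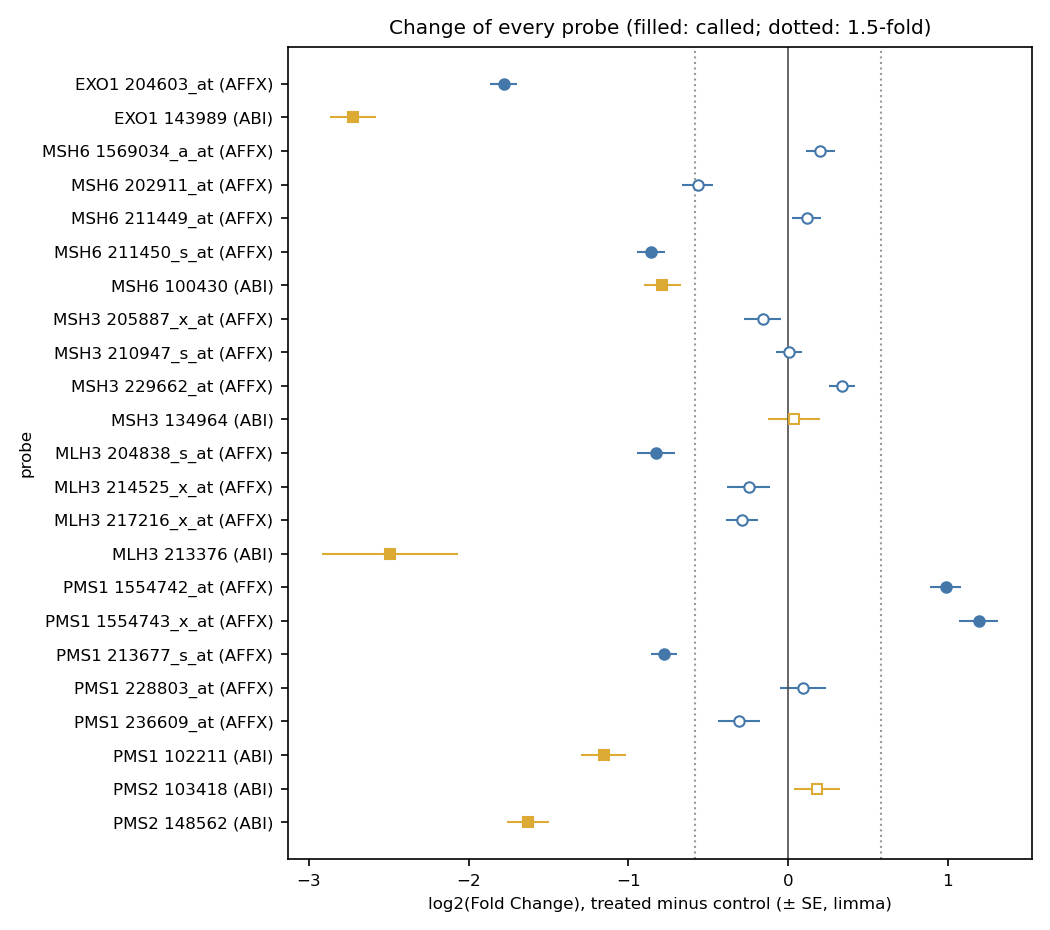
log2(Fold Change) of each of the 23 member probes, treated minus control (circles AFFX, squares ABI; bars are the limma SE; filled symbols were called; dotted lines mark 1.5-fold). EXO1 lies furthest left on each platform at -1.78 and -2.73, the PMS1 probe sets fall on both sides of 0, and all MSH3 probes are open.

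The last PMS1 probe sets were not called. 228803_at read 5.24 ± 0.320 (SD, n = 3) and 5.33 ± 0.136, and 236609_at read 4.67 ± 0.203 and 4.36 ± 0.232 (adjusted p = 0.631 and 0.0898 in limma). On ABI the single PMS1 probe (102211) read 5.00, 4.89 and 4.71 in controls and 3.81, 3.74 and 3.58 in treated cells. Its direction was that of 213677_s_at, with a log2(Fold Change) of -1.15 ± 0.142 (SE), 2.23-fold lower, and an adjusted p of 0.00538 in limma. No ABI probe corresponded to the record behind the rising AFFX probe sets in the annotation used here.

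PMS2, the endonuclease of the main MutL dimer, had no AFFX probe set of its own, and its ABI probes differed. Probe 148562 read 3.98, 3.95 and 4.08 in controls and 2.53, 2.25 and 2.35 in treated cells. This was a clear separation, with a log2(Fold Change) of -1.63 ± 0.132 (SE), a 3.09-fold fall and an adjusted p of 0.00148 in limma. Probe 103418 read 4.47, 4.42 and 4.27 in controls and 4.76, 4.48 and 4.47 in treated cells. Its treated arrays all lay slightly above the controls, yet the change of 0.18 ± 0.143 was not called (adjusted p = 0.428 in limma). Both probes are annotated to the same RefSeq record, so the gene alone does not tell them apart.

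Across the members, the treated and control arrays did not overlap for 10 of 16 AFFX probe sets and 6 of 7 ABI probes (62.5% and 85.7%). Over all probes tested the groups did not overlap for 51.5% on AFFX and 40.9% on ABI, so this count is a weak criterion next to the calls, which 8.95% and 10.1% of all probes passed in the lower direction and 1.75% and 7.71% in the higher. The SD within a group ranged from 0.0289 to 0.320 for the AFFX probe sets and from 0.0328 to 0.844 for the ABI probes, the latter highest for MLH3 in treated cells. By the representative probe, the one with the lowest p in the test that the methods use to choose probes, run here with equal variance, 4 of 5 members were lower on AFFX, with a median log2(Fold Change) of -0.83. Over all AFFX genes 14.2% were called lower and 2.49% higher, with a median of 0.16. On ABI 5 of 6 members were lower with a median of -1.39, where 14.8% of all genes were called lower and 6.31% higher and the median was 0.09. Such a probe is picked on the same arrays, which leans its fold towards larger values. For PMS1 on AFFX it was 213677_s_at, while 1554742_at and 1554743_x_at were called higher.

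The scaling of the arrays moved all probes together. The median log2(Fold Change) of all AFFX probe sets was 0.12 as deposited, 0.06 after median centring, -0.04 after centring on ribosomal protein genes and -0.30 after centring on the hybridisation controls. The same shift applied to the members, so that under the last of these MLH3 204838_s_at read -1.24, PMS1 213677_s_at -1.19 and the rising 1554742_at 0.57, no longer called. On ABI the median of all probes went from 0.16 to -0.38 with ribosomal centring, where MSH6 read -1.33. The calls of all AFFX probe sets were 83.6% in the lower direction as deposited and 99.2% and 96.5% under hybridisation control and ribosomal centring, and on ABI 56.7% and, with ribosomal centring, 96.6%. Centring shifts every probe alike, so the members kept their distance from these medians.

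The platforms were then compared on 16186 genes measured by both, among them 5 members, by testing whether the change on ABI differed from that on AFFX. The fall of EXO1 was deeper on ABI by 0.95 ± 0.145 (SE) on the log2 scale (adjusted p = 0.00212 in limma), and this call held under every alternative run. Its difference was -0.69 with the platform's median intensity added to the ABI values before the log. MLH3 also differed, by -1.66 ± 0.470 (adjusted p = 0.0393 in limma). The difference was -0.76 with the platform's median intensity added to the ABI values before the log (adjusted p = 0.0341). The call was lost in 10 of the 12 fits that left out an array, all but those without ABI treated array 2 or 3, with adjusted p between 0.0565 and 0.0961. A difference was called for 15.1% of all shared genes. PMS1 differed by -0.38 ± 0.142, MSH3 by -0.30 ± 0.167 and MSH6 by 0.07 ± 0.121, with adjusted p of 0.109, 0.274 and 0.756. The PMS1 value rests on AFFX probe set 213677_s_at. The PMS1 probe sets 1554742_at and 1554743_x_at rose on AFFX (0.99 and 1.19), and their difference from ABI was not tested. MSH3 was called without ABI treated array 3 (adjusted p = 0.0298), and with the probe set of the highest mean in place of 229662_at its difference was 0.03.

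**Figure D3:**
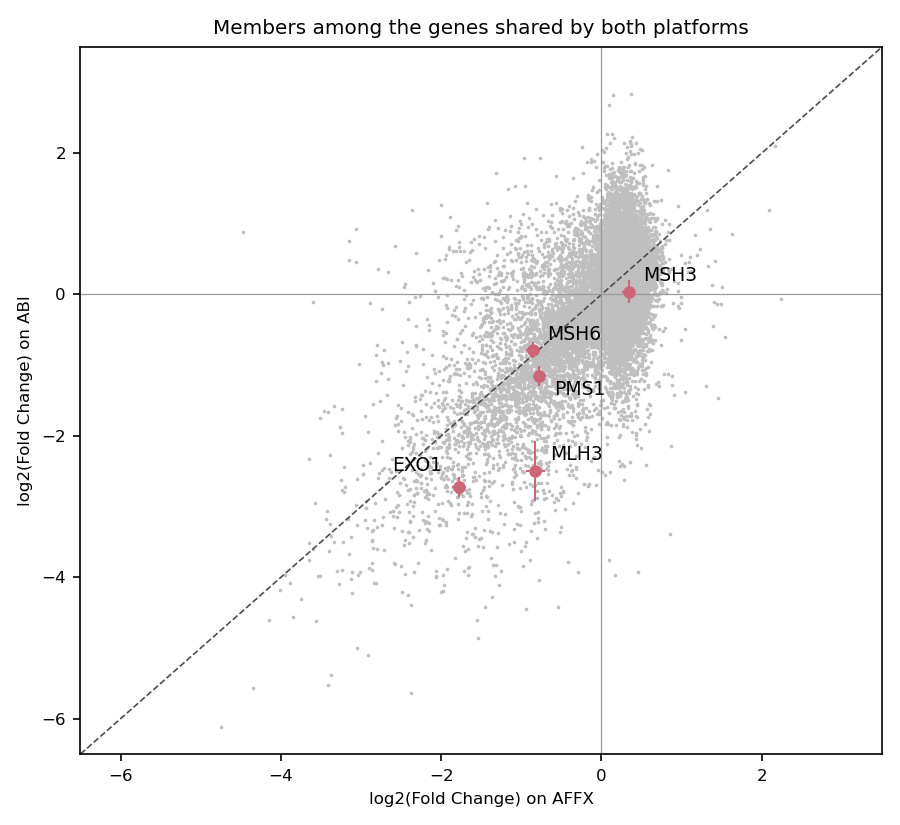
log2(Fold Change) on AFFX (horizontal axis) and on ABI (vertical axis) for the 16186 shared genes (grey, representative probes) and the 5 shared members (red, bars are the limma SE); the dashed line marks equal change. EXO1 and MLH3 lie below the line, MSH6 (-0.86 and -0.79) lies close to it, and MSH3 lies near 0 on ABI.

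The selection steps of the study's methods were followed with SAM run without a block, because the methods speak of a block but do not name it. They ask for an interquartile range of at least 0.4 on both platforms, an integrative correlation above 0.5 and selection by SAM on each. EXO1 and PMS1, the latter by its AFFX probe set 213677_s_at, passed all of it, where 7.59% of all shared genes were selected alike on both. These were 1228 genes, after 3588 had passed the limit on the range and 2991 that on the correlation. The study reports fewer genes at each of these steps, so passing here is not the study's own selection. MSH6 passed SAM on AFFX alone and MLH3 on ABI alone. The integrative correlation of these 4 members lay between 0.737 and 0.740. MSH3 was removed at the first step, with an interquartile range of 0.276 on AFFX and 0.109 on ABI. With limma calls in place of SAM all 4 were selected, whereas a stricter limit on the range or on the correlation left EXO1 alone, so the count of members depends on these settings and EXO1 was selected in each of the 7 runs.

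Downstream of the incision, the genes of excision and resynthesis moved in part. Of 15 listed genes measured on each platform, 4 were called lower and 2 higher on AFFX and 4 lower and 1 higher on ABI, beside the 14.2% and 2.49% of all AFFX genes and the 14.8% and 6.31% of all ABI genes. The medians were 0.18 and 0.16, against 0.16 and 0.09 over all genes. The same 4 genes were lower on both platforms. POLD3, an accessory subunit of DNA polymerase delta, read 8.99 ± 0.146 (SD, n = 3) in controls and 7.44 ± 0.208 in treated cells on AFFX, a 2.94-fold fall, and fell 4.11-fold on ABI (adjusted p = 2.05e-06 and 0.000973 in limma). RFC4, RFC1 and RFC3 belong to the clamp loader that places PCNA on DNA. RFC4 fell 2.42-fold on AFFX and 2.70-fold on ABI, RFC1 1.94-fold and 2.49-fold, and RFC3 1.75-fold and 1.91-fold. The RFC1 call on ABI was near the limit (adjusted p = 0.0418 in limma), with an SD of 0.567 among the controls. RFC2 and RFC5, the other clamp loader subunits listed, were not called, and PCNA itself changed by -0.41 and -0.58 on the log2 scale, short of the fold limit. The rises, named after their values were seen, were RPA1 (0.75) and RPA3 (0.62) on AFFX and HMGB1 (0.78) on ABI. Each was without a call on the other platform. RPA1 and RPA3 are subunits of the single-strand binding protein RPA. All values here are those of the representative probes. That of RPA1 was picked from 3 AFFX probe sets and that of HMGB1 from 3 ABI probes, while RPA3 had 1 AFFX probe set. Among the falls, POLD3 had 2 AFFX probe sets, and RFC1 and RFC3 had 3 each. The other probes of these genes are not reported here.

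The nucleases related to EXO1 were lower in part, by their representative probes. For FEN1 and GEN1 these were picked from 2 AFFX probe sets each. FEN1, the flap endonuclease, fell on both platforms, with a log2(Fold Change) of -1.20 ± 0.0809 (SE) on AFFX and -0.70 ± 0.137 on ABI (adjusted p = 8.36e-07 and 0.0221 in limma). GEN1, a Holliday junction resolvase, fell 2.23-fold on AFFX, to a treated mean of 4.47 under the leukocyte marker median, and read -1.59 ± 0.434 on ABI without a call (adjusted p = 0.0537 in limma). ERCC5, the nucleotide excision repair endonuclease, read -0.01 on AFFX and fell 1.77-fold on ABI (adjusted p = 0.0409 in limma). The meiotic MutS genes are not known for repair of replication errors. MSH4 was not called on either platform, and MSH5 was lower by 0.69 on ABI (adjusted p = 0.0207 in limma) with no AFFX probe set of its own.

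**Figure D4:**
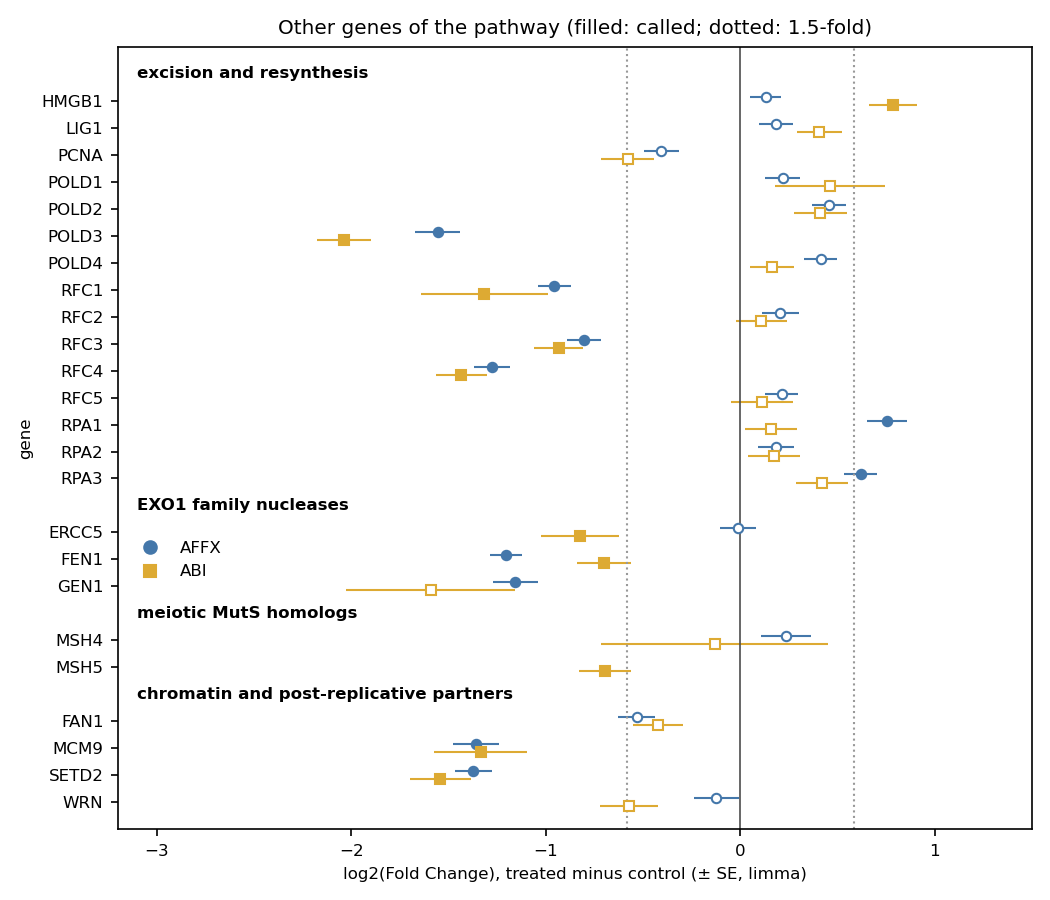
log2(Fold Change) of the listed pathway genes by their representative probes (circles AFFX, squares ABI; bars are the limma SE; filled symbols were called; dotted lines mark 1.5-fold). POLD3, RFC1, RFC3, RFC4, FEN1, MCM9 and SETD2 are filled on the left on both platforms, and most other genes lie between the dotted lines.

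Among chromatin and post-replicative partners of the pathway, SETD2, which writes the histone mark that MSH6 binds, fell 2.59-fold on AFFX and 2.91-fold on ABI (adjusted p = 1.13e-06 and 0.00282 in limma). MCM9, a helicase linked to mismatch repair, fell 2.57-fold and 2.52-fold (adjusted p = 5.90e-06 and 0.0170 in limma), with treated means of 4.37 and -1.50 that lie under the leukocyte marker medians, so that these folds are not exact. The folds are those of the representative probes. These were picked from 3 AFFX probe sets and 4 ABI probes for SETD2, and from 3 and 2 for MCM9. The other probes of both genes are not reported here. FAN1, a nuclease that binds MutL proteins, read -0.53 and -0.42, and WRN, a helicase needed by cells that lack mismatch repair, read -0.12 and -0.57. Neither was called. This list had 2 of 4 genes lower on each platform, with medians of -0.95 and -0.95, beside 14.2% and 14.8% of all genes called lower and medians of 0.16 and 0.09 over all genes.

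Genes that overlap a member or start within 1000 bases of it on the other strand were read as well. FBXO11, an F-box protein gene that overlaps MSH6, had 1 of 3 AFFX probe sets called (222119_s_at, a 2.32-fold fall) and the other two at 0.37 and -0.19. Both of its ABI probes were called lower, by 0.77 and by 1.70 on the log2 scale. ORMDL1, a regulator of sphingolipid synthesis that starts beside PMS1, had 1 of 3 AFFX probe sets called (228801_at, a 1.96-fold fall), the others at 0.18 and -0.04, and its ABI probe at -0.28 was not called. AIMP2 beside PMS2 was not analysed here.

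The genes most like each member were found by Euclidean distance over the 12 arrays, on log2 signals minus the control mean of the platform, among 16185 other shared genes. EXO1 was nearest to KAT5, at a distance of 0.39, and to PANK1 at 0.44, where the median gene lay at 6.02. MSH6 was nearest to C1orf174 (0.19) and TMEM165 (0.24). PMS1, by its falling AFFX probe set 213677_s_at, was nearest to SESN2 (0.20) and SYNM (0.23), and its rising probe sets were not used here. MSH3 was nearest to COPB2 (0.20) and PTGES (0.22). Its AFFX value there is that of 229662_at (0.34), which lies under the leukocyte marker median. The brighter 210947_s_at, at 0.01, was not used for this. MLH3 had no gene as close, with ABHD15 at 0.65 and RAD9A at 0.69. KAT5 changed by -1.71 on AFFX and -2.63 on ABI, beside -1.78 and -2.73 for EXO1. These values are close because the gene was chosen for nearness on them, and a link in function was not tested.

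The line was checked against markers. VIM stood above the 75th percentile of the control arrays on both platforms, KRT7 and PAX8 on AFFX only, and EPCAM, CDH1, KRT8, KRT18, WT1 and MUC16 on neither. None of 10 leukocyte markers did, and COL1A2 and PDGFRB of 8 fibroblast and endothelial markers did on both. The summed linear signal of the leukocyte list was 614 to 641 on control and 736 to 798 on treated AFFX arrays, with 0 probe sets called, and 5.94 to 8.26 and 5.55 to 7.02 on ABI. That of the fibroblast and endothelial list was 4732 to 5079 and 5052 to 5223 on AFFX, with 1 probe set called lower, and 71.1 to 79.0 and 82.8 to 93.6 on ABI. Their part in the results was not tested. Array medians ran from 5.37 to 5.47 on the log2 scale for AFFX and from 1.06 to 1.19 in linear units for ABI, and precision is limited by the few arrays.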

How the data were processed

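RNA of A2780 cells was hybridised to 6 AFFX and 6 ABI arrays. The AFFX table holds log2 signals as the authors deposited them, after RMA and quantile normalization (RMA is named in the submitters' processing notes, its version is not given in the sources used here). The ABI table holds chemiluminescence intensities on a linear scale, deposited after the authors' global median normalization and without detection flags, which were turned to log2 here. Groups came from the labels. All columns of both tables belonged to a sample. Treated and control arrays were compared per platform with limma 3.58.1 in R 4.3.3 over all probes other than controls, unpaired, with Benjamini-Hochberg adjustment. The platform difference was an interaction in limma, with SE and p from the same fit. SAM and the integrative correlation were written from their published descriptions, with all 20 permutations and no block, since the methods do not name theirs. The limma comparison per platform, the t-test, SAM and the integrative correlation were tried on simulated data. The platform difference was not. The members and gene lists were chosen with earlier results of these data known. Named genes were every member probe, listed pathway genes called alike on both platforms (at most 4 a list, short lists in full), neighbouring genes and the 2 nearest genes per member. Promoter windows are from RefSeq, and a window was listed for each of the 6 members. Alternatives covered the replicate number as a block, scaling, an offset, dim probes, the prior, fold limits, the methods' t-test, the settings of the route and each array left out.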

Additional observations from a re-analysis of the deposited data

Results flagged for a closer look

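The change of EXO1 was larger on ABI than on AFFX, with a difference of -0.95 ± 0.145 (SE) on the log2 scale and an adjusted p of 0.00212 by the interaction in limma. All 3 treated arrays lay below all 3 control arrays on each platform. The change of MLH3 also differed between the platforms, by -1.66 ± 0.470 (adjusted p = 0.0393 in limma), and there the 3 treated ABI arrays read -0.30, 0.77 and -0.89. The platforms use different probes, detection and normalization for the same RNA pools, and 15.1% of all shared genes differed in this test. With the platform's median intensity added to the ABI values before the log, the differences were -0.69 for EXO1 and -0.76 for MLH3. The cause of the differences was not tested. With 3 arrays a group, single arrays were not tested as outliers.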

How the results depend on the processing

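Of 301 recomputed changes of single member probes, called or not, 285 stayed on their side of the thresholds, 7 lost a call and 9 gained one. No called change turned its sign, while 15 values without a call did, on 7 probes. These counts leave out the other fold limits. At a 2-fold limit the calls of AFFX 1554742_at, 204838_s_at, 211450_s_at and 213677_s_at and of ABI probe 100430 were lost. Without a fold limit 202911_at and 217216_x_at were called lower and 229662_at higher. Lower AFFX probe sets numbered 8 under hybridisation control centring and 1 at a 2-fold limit, in place of 4, and 4 to 5 with arrays left out. Higher AFFX probe sets numbered 1 rather than 2 under hybridisation control centring, with dim probes left out and at the 2-fold limit. The labels and methods do not say whether the replicate numbers pair the arrays. The deviations of same-numbered arrays correlated between 0.00403 and 0.327 on AFFX and between -0.00667 and 0.0717 on ABI. Those of differently numbered arrays correlated between -0.339 and 0.324 on AFFX and between -0.0620 and 0.0270 on ABI. With 3 arrays a group these values cannot settle whether the numbers pair the arrays. With the replicate number as a block, lower ABI probes numbered 3 in place of 5 (MSH6 adjusted p = 0.0581, MLH3 0.0633), member genes that differed between platforms numbered 1 in place of 2 (MLH3 adjusted p = 0.0837), and lower and higher calls over all ABI probes numbered 1889 and 347 in place of 3347 and 2553. With arrays left out, lower ABI probes numbered 4 to 5 and differing members 1 to 3, and calls over all ABI probes ranged from 2227 to 2761 lower and from 737 to 1376 higher. Members selected on both platforms by the study's steps, with SAM run without a block, were 2, against 4 with limma calls in place of SAM, 1 at an IQR limit of 0.5 and 1 at an IC limit of 0.7. The causes were not tested. Dim signals on AFFX and the spread between ABI arrays limit what can be called. No detection flags were used.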

Other observations

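PMS2 shares its 2 remaining AFFX probe sets with PMS2CL, a related pseudogene, so they were assigned to neither gene. Probe set 209805_at read 7.61, 7.63 and 7.72 on the control arrays and 6.78, 6.69 and 6.65 on the treated arrays, a 1.92-fold fall (adjusted p = 6.54e-06 in limma). Probe set 221206_at read 8.08, 8.16 and 7.99 against 7.75, 7.62 and 7.83, a 1.27-fold difference under the fold limit (adjusted p = 0.0118 in limma). Both had no overlap between groups. Among 13 AFFX probe sets of 6 other PMS2 pseudogenes, 1 was called lower and 1 higher, where 8.95% and 1.75% of all AFFX probe sets were. Their changes ran from -0.65 to 0.71, with a median of 0.29 on the log2 scale.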
